A study of Homo sapiens with 6 samples.

Results

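Homologous recombination copies an intact sister DNA molecule to mend a break through both strands, and the Fanconi pathway clears crosslinks that tie the strands together, passing the broken fork to the same recombination proteins. The set described here was named gene by gene, with earlier results of these data known, as the factors of these pathways from break recognition to junction resolution together with POLQ, the polymerase of the competing theta-mediated end joining. It has 39 genes of the 62696 in the count files, and all 39 were found and had enough counts to be tested. The genes were grouped by role into 5 mediators around BRCA1 and BRCA2, 9 paralogs and accessories of the strand-exchange recombinase, 7 sensing and resection factors, 6 junction factors, 9 genes of the Fanconi core complex with its ubiquitin-conjugating enzyme, 2 genes of the FANCD2-FANCI clamp and POLQ.

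RNA came from DMS53, an established small cell lung cancer line with neuroendocrine features, in 3 control and 3 OC2-OE libraries. Control cells carried an empty lentiviral vector with mGFP and a puromycin resistance gene, and OC2-OE cells the vector with a constitutively expressed, mGFP-tagged ONECUT2 (OC2), a homeobox transcription factor. Both groups therefore share lentiviral transduction and puromycin selection, and the comparison asks what enforced OC2 does to gene expression in this line. The libraries of a group stand for independent experiments, but whether these started from separate transductions is not given in the sources used here, so p-values measure the spread between these libraries.

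In cycling cells many recombination genes are transcribed along with the replication genes, since a sister copy exists only after replication. BRCA1 and BARD1 mark and process the break, PALB2 brings in BRCA2, and BRCA2 loads the recombinase onto resected DNA. In the Fanconi pathway the core complex, with FANCL as its ubiquitin ligase and UBE2T as the conjugating enzyme, modifies FANCD2 and FANCI, which then clamp onto the DNA.

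The 6 libraries held between 16533284 and 19099337 counted read pairs. ONECUT2 itself checks the labels and rose by 7.32 on the log2 scale in the OC2-OE libraries (standard error, SE, 0.028, edgeR quasi-likelihood test, adjusted p = 1.95e-158). Its counts cannot separate the introduced coding sequence from the endogenous gene. Values below are CPM, counts relative to library sizes that edgeR's TMM method scaled, with the SD over 3 libraries, and a gene is said to have risen or fallen where the edgeR quasi-likelihood test gave an adjusted p under 0.001 (Benjamini-Hochberg, over all 17307 genes tested). All 8 neuroendocrine markers were detected in both groups, and in OC2-OE cells 5 of them fell and 2 rose, with a median log2 fold change of -0.29. Among those that fell, the log2 fold change was -2.52 for DDC, -1.996 for NCAM1, -1.93 for INSM1 and -0.44 for SYP. Their summed level ran from 2530 to 2548 CPM in control and from 3178 to 3218 CPM in OC2-OE libraries, where SCG2 alone went from 801 to 2273 CPM and CHGA from 72.2 to 150.1 CPM. Markers of cells that a pure line should lack were low, with 3 of 8 fibroblast, 3 of 6 endothelial and 2 of 7 leukocyte markers above the count filter. Their summed levels ran, in control and OC2-OE libraries, from 21.3 to 24.0 and from 28.3 to 32.3 CPM for fibroblast, from 13.4 to 15.3 and from 4.28 to 4.96 CPM for endothelial and from 3.91 to 4.48 and from 7.62 to 9.28 CPM for leukocyte markers. THY1, a fibroblast marker, and CD3E, a T cell marker, had 0 counts in every library, but other markers of these cell types had reads. Of the 3 fibroblast markers tested 2 rose, COL1A1 from 21.5 to 27.8 CPM and PDGFRB by 2.48 on the log2 scale from 0.153 CPM. Of the 3 endothelial markers tested 2 fell, KDR from 10.6 to 1.55 CPM and CDH5 from 1.01 to 0.0549 CPM. Both leukocyte markers tested rose, CD14 from 3.60 to 5.86 CPM and LYZ from 0.401 to 2.22 CPM. The part of these markers in the results was not tested.

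Expression of most homologous recombination and Fanconi genes was lower in OC2-OE cells. Of the 39 genes, 26 (66.7%) fell, against 28.7% of all genes tested, and 5 (12.8%) rose, against 27.8% of all genes tested. The genes that fell ran from RBBP8, with a log2 fold change of -0.21, to UBE2T, with -1.44. The 5 that rose were RAD52, RAD51D, NBN, SLX4 and FANCL, with log2 fold changes between 0.25 and 0.64. The median log2 fold change of the 39 genes was -0.53, beside 0.007 over all genes tested, and it was -0.52, -0.58 and -0.53 when each OC2-OE library was set against the control mean on its own. Together the 39 genes made up between 1829.9 and 1861 CPM in the control libraries and between 1263 and 1290.2 CPM in the OC2-OE libraries.

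Every OC2-OE library lay below every control library for 30 of the 39 genes, a separation seen for 36.7% of all genes tested, and above every control library for 7, against 36.5% of all genes tested. The groups overlapped for the other 2, RAD50 and ATM. In 9 genes the fall was at least 1 on the log2 scale (UBE2T, POLQ, FANCI, BRCA2, BLM, RAD51AP1, RAD54L, RMI2 and EXO1), which was the case for 9.04% of all genes tested. None of the 5 that rose reached 1. Genes of DNA replication and mitosis moved with these genes. The summed level of 27 S phase markers fell from 3178 ± 19.3 to 1709.8 ± 10.2 CPM (SD, n = 3) and that of 25 G2/M markers from 3625 ± 67.2 to 841.6 ± 2.94 CPM (SD, n = 3), with no overlap between groups. Their part in the result was not tested, and in bulk RNA fewer cells of a given phase and less RNA per cell cannot be told apart.

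**Figure D1:**
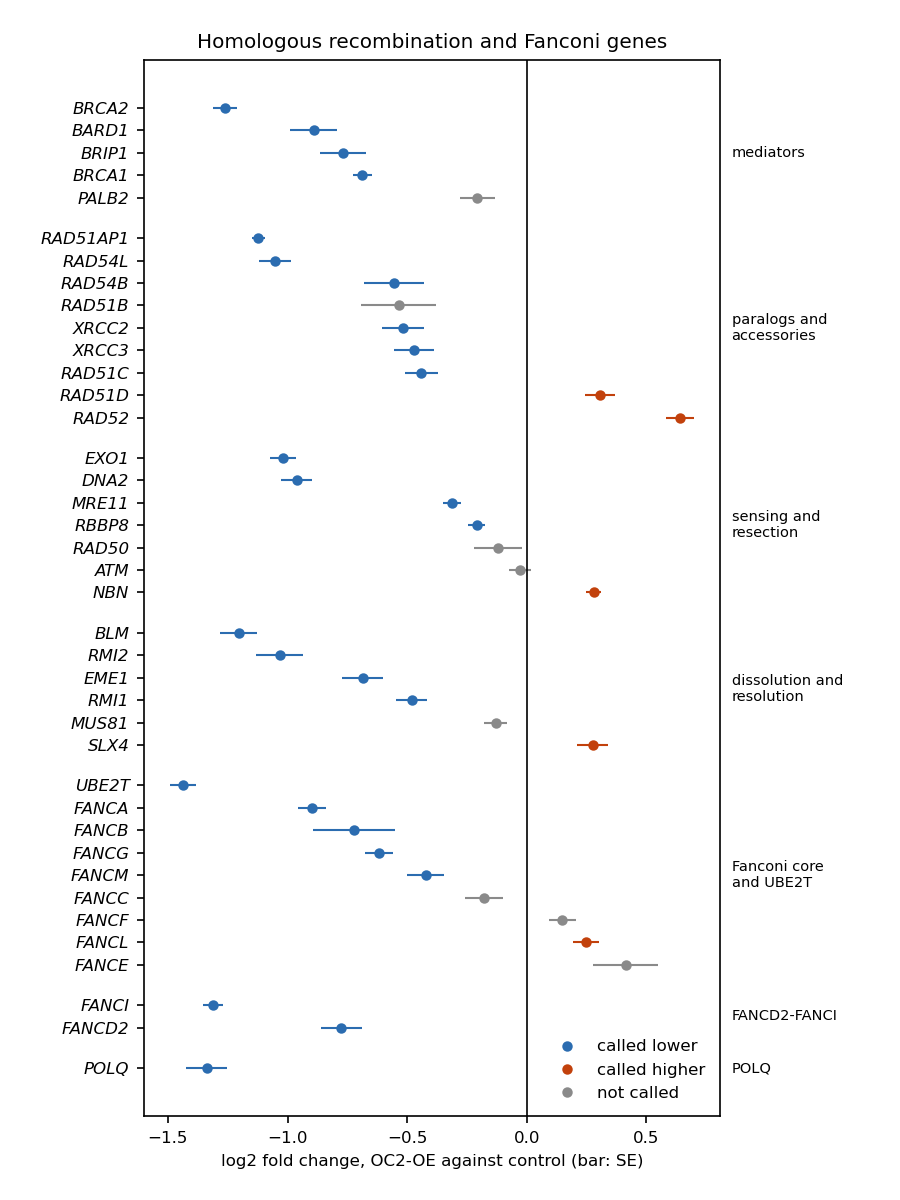
Log2 fold change of OC2-OE against control (horizontal axis) for each of the 39 genes (vertical axis), grouped by role, with bars for the standard error from edgeR. Points left of 0 are lower in OC2-OE cells, and 26 of them are called lower, 5 on the right are called higher and 8 are not called.

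**Figure D2:**
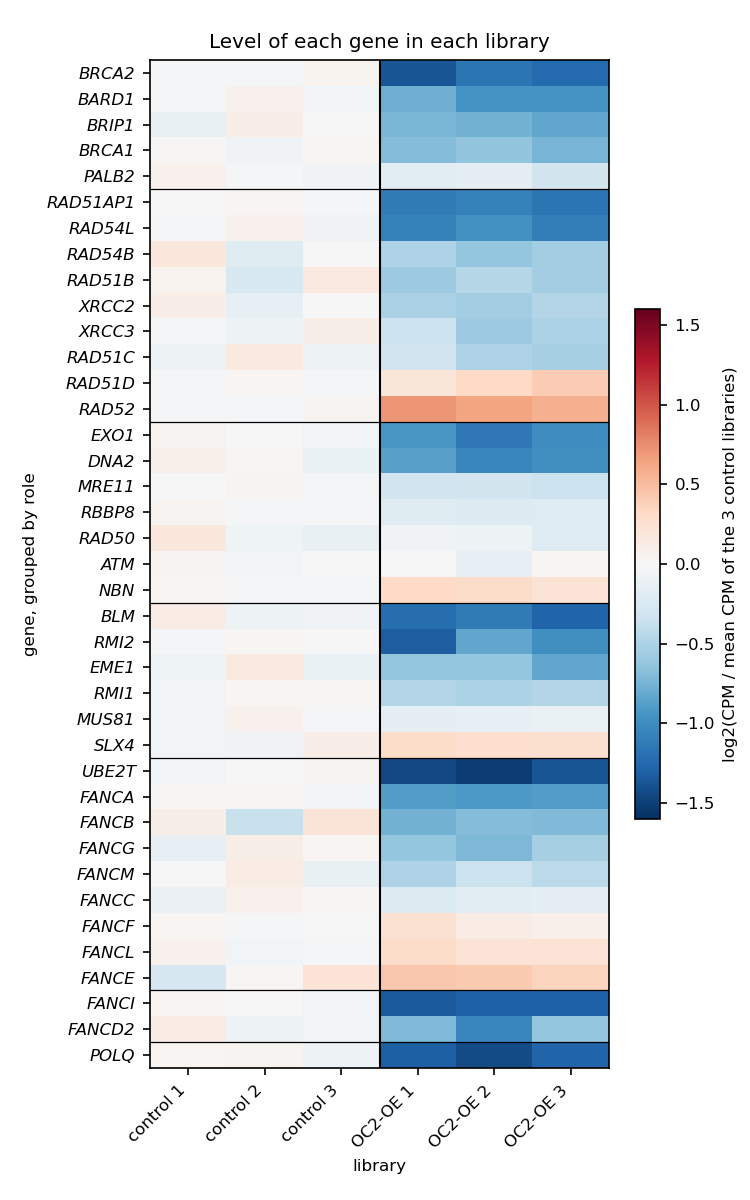
Log2 of each library's CPM over the mean CPM of the 3 control libraries (colour) for each gene (rows) in each library (columns), with lines between roles. The 3 OC2-OE columns look alike, and their darkest blue rows are UBE2T, POLQ, FANCI and BRCA2.

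Promoter sequences were examined because these genes moved together. They come from RefSeq windows on GRCh38.p14 that run from 250 bases before to 50 bases after a start, which held 34 of the 39 genes. Shown are the stretches from 250 bases before to 30 bases after the start for UBE2T and BLM, 2 genes with large falls and CCAAT boxes, for EXO1 and FANCD2, 2 genes that fell and hold an E2F motif, and for RAD52, the gene that rose most, which holds neither. Capitals mark the E2F motif or the CCAAT box on either strand. EXO1 and RAD52 each have another window, at a different start, which is not shown. That of RAD52 also holds neither motif. UBE2T (chr1:202341907-202342186, minus strand), BLM (chr15:90717096-90717375, plus strand), EXO1 (chr1:241847954-241848233, plus strand), FANCD2 (chr3:10026187-10026466, plus strand) and RAD52 (chr12:990012-990291, minus strand) read, 5′ to 3′:
UBE2T: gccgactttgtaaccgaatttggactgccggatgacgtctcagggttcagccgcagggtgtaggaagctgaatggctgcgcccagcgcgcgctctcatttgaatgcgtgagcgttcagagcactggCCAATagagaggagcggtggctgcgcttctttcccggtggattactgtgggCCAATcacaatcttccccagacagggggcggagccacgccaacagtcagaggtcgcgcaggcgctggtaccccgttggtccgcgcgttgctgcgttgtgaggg
BLM: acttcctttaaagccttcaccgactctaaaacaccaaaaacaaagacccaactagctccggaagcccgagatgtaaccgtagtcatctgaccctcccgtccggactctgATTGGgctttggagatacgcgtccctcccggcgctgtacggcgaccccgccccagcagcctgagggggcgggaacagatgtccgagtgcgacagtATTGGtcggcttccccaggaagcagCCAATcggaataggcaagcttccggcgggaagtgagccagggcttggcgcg
EXO1: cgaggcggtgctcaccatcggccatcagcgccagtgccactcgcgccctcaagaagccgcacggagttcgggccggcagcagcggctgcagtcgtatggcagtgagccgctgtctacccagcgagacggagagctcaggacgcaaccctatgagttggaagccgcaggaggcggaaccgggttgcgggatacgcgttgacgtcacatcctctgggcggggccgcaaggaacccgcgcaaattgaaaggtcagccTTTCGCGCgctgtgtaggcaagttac
FANCD2: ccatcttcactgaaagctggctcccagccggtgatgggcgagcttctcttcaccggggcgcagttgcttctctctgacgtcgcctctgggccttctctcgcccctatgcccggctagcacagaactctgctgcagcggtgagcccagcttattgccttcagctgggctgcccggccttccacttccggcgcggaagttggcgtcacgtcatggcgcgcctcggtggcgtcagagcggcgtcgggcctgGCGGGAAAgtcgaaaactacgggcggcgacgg
RAD52: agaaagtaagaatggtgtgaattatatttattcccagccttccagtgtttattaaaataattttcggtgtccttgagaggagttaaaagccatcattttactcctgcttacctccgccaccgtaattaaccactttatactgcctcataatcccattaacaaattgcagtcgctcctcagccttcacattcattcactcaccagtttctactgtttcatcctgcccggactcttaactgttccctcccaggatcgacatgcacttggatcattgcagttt

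The E2F motif, searched as TTTCCCGC, TTTGGCGC, TTTCGCGC or TTTGCCGC on both strands, is bound by the family that drives transcription at the entry into S phase. These letters stood in the windows of 6 of the 34 genes (17.6%), beside 3.99% of the 27305 genes in the table and 6.20% of the genes tested. XRCC2, EXO1, RMI1, FANCA and FANCD2 among them fell, and FANCC was not called. Only the exact letters were searched. Near matches were not counted, such as GCGGGAAG in the BLM stretch shown and in the RAD52 window not shown. In FANCD2 the motif spans the start itself. In EXO1 it begins 4 bases after the start of the window shown, and the other EXO1 window holds no E2F letters. The CCAAT box, bound by NF-Y and searched as CCAAT on both strands, stood in 15 of the 34 (44.1%), beside 39.7% of all genes in the table and 42.9% of the genes tested. In the 150 bases nearest the start it stood in 13 (38.2%), beside 25.3% of all genes in the table and 28.6% of the genes tested. In the full windows the CCAAT box was found in 11 of the 22 genes that fell, in 0 of the 4 that rose and in 4 of the 8 that were not called. The cell cycle homology region, searched as TTTGAA on both strands, stood in 5 of the 34 (14.7%), beside 18.2% of all genes in the table and 13.999% of the genes tested, and shares its first 4 letters with 2 of the E2F forms. It was held by BRIP1, UBE2T and POLQ, which fell, and by ATM and FANCC, which were not called. In the UBE2T stretch above it is left in small letters. The core letters of ONECUT sites, ATCGAT and, as the other form, ATTGAT on both strands, stood in 0 of the 34, beside 8.47% of all genes in the table and 6.16% of the genes tested, which says only that these letters are not in these windows. The latter form shares its first 4 letters with the reverse complement of the CCAAT box.

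Of the 5 mediators, 4 fell and PALB2 was not called. BRCA2, which loads the recombinase onto DNA (ENSG00000139618.18, chromosome 13 from 32315086 to 32400268), had 70.01, 70.4 and 74.6 CPM in the control libraries and 27.7, 31.97 and 30.1 CPM in the OC2-OE libraries. All 3 OC2-OE libraries were under the lowest control library by a wide margin, and the log2 fold change was -1.26 (SE 0.051, edgeR, adjusted p = 6.25e-47). BRCA1, the ubiquitin ligase that recruits PALB2 (ENSG00000012048.24, chromosome 17 from 43044295 to 43170245), had 102, 97.7 and 103 CPM in the control and 62.4, 65.6 and 60.5 CPM in the OC2-OE libraries. It fell by 0.69 (SE 0.040, edgeR, adjusted p = 1.00e-32) with no overlap between groups. Its partner BARD1 had 14.4, 15.5 and 14.3 CPM in control and 8.56, 7.56 and 7.63 CPM in OC2-OE libraries. For BARD1 the log2 fold change was -0.89 with an SE of 0.10. BRIP1, the helicase that binds BRCA1, had 13.5, 15.8 and 14.8 CPM in control and 8.87, 8.71 and 8.23 CPM in OC2-OE libraries, a log2 fold change of -0.77 (SE 0.10). PALB2, the bridge between BRCA1 and BRCA2, stood at 21.8, 20.5 and 19.9 CPM in control and 18.3, 18.8 and 16.9 CPM in OC2-OE libraries. The PALB2 groups did not overlap, but the log2 fold change of -0.21 (SE 0.074) did not reach the threshold (edgeR, adjusted p = 0.0102).

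The paralogs and accessories of the recombinase had 6 of 9 lower and 2 higher (22.2%, beside 27.8% of all genes tested). RAD51AP1, which stimulates strand pairing (ENSG00000111247.15, chromosome 12 from 4538798 to 4560047), was the most abundant of the 39 in reads, at 369.7, 381 and 367 CPM in control and 172, 175 and 166 CPM in OC2-OE libraries. It made up 20.1% of the summed CPM of the set in control cells, and its log2 fold change was -1.12 (SE 0.026, edgeR, adjusted p = 6.94e-71). RAD54L, the motor that drives strand exchange (ENSG00000085999.13, chromosome 1 from 46246461 to 46278480), had 34.8, 36.9 and 33.8 CPM in control and 16.6, 17.9 and 16.4 CPM in OC2-OE libraries, a log2 fold change of -1.05 (SE 0.066). Each OC2-OE library of both genes was close to the others and far from the controls. RAD54B, a related motor, was low, with 8.94, 6.99 and 7.99 CPM in control and 5.69, 5.19 and 5.43 CPM in OC2-OE libraries and a log2 fold change of -0.55 (SE 0.12, edgeR, adjusted p = 4.22e-05). The exons of FSBP on the same strand cover 66.0% of its exon bases, and pairs that fall on both genes were not counted. The call of RAD54B was lost without control replicate 1 (-0.46, edgeR, adjusted p = 0.00242) and with the Wald test of DESeq2 (-0.55, adjusted p = 0.00145), in a range over the settings that reached down to 2.19e-05. With the counts of FSBP added, the log2 fold change was -0.35 (edgeR, adjusted p = 0.000182).

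The paralogs form 2 complexes that stabilise the recombinase filament, and their members differed in direction. RAD51C, which belongs to both, had 26.01, 30.8 and 26.01 CPM in control and 22.1, 19.7 and 19.05 CPM in OC2-OE libraries, a log2 fold change of -0.44 (SE 0.070). XRCC3, its partner in the smaller complex, fell by 0.47 (SE 0.084), from 17.96 ± 1.15 to 12.9 ± 1.10 CPM (SD, n = 3). Of the larger complex, XRCC2 fell by 0.52 (SE 0.089), from 15.7 ± 1.26 to 10.96 ± 0.374 CPM (SD, n = 3). RAD51B, of the same complex, had 5.30, 4.30 and 5.66 CPM in control and 3.39, 3.69 and 3.46 CPM in OC2-OE libraries, from 263 and 192 read pairs per group. Its log2 fold change of -0.53 had an SE of 0.16, so that it was of the size of the RAD51C value but was not called (edgeR, adjusted p = 0.00150). Without control replicate 2 it was called, at -0.64 (edgeR, adjusted p = 0.000561, the lowest of its settings, which reached up to 0.0159). RAD51D, the remaining subunit of the larger complex (ENSG00000185379.21, chromosome 17 from 35092221 to 35121522), rose from 25.05, 26.00 and 24.97 CPM in control to 29.01, 31.6 and 33.5 CPM in OC2-OE libraries. Its log2 fold change was 0.31 (SE 0.063, edgeR, adjusted p = 7.86e-06), and 8.89% of its exon bases lie in exons of 2 other genes on the same strand, both with 0 counts.

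RAD52, which anneals complementary strands and can load the recombinase (ENSG00000002016.18, chromosome 12 from 911736 to 990053), had 25.96, 26.1 and 27.4 CPM in control and 43.3, 40.98 and 39.4 CPM in OC2-OE libraries. The OC2-OE values were all above the control values, and at 0.64 (SE 0.058, edgeR, adjusted p = 5.60e-19) this was the largest rise among the 39. The RAD52 stretch printed above lies at the start farther upstream and holds none of the letters searched. Neither does the other RAD52 window, from 949645 to 949944. Which start gives the RAD52 reads was not tested.

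Among the sensing and resection factors, the long-range nucleases fell, and the kinase and the complex that detect the break had smaller values in both directions. EXO1, which digests the broken end over long stretches (ENSG00000174371.17, chromosome 1 from 241847967 to 241895148), had 55.8, 54.2 and 52.6 CPM in control and 28.5, 24.5 and 27.2 CPM in OC2-OE libraries, a log2 fold change of -1.02 (SE 0.055, edgeR, adjusted p = 2.65e-35). DNA2, the nuclease of the parallel route, had 40.04, 38.4 and 34.99 CPM in control and 20.7, 18.3 and 19.2 CPM in OC2-OE libraries, a log2 fold change of -0.96 (SE 0.064). For both nucleases all OC2-OE libraries lay well below all control libraries. RBBP8, also called CtIP, which starts resection, had 122, 117 and 116 CPM in control and 104, 102 and 103 CPM in OC2-OE libraries, and its fall of 0.21 (SE 0.035, edgeR, adjusted p = 5.07e-08) was the smallest of those called.

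MRE11, NBN and RAD50 form the complex that binds the end, and each gave a different result. MRE11, the nuclease, had 98.1, 101 and 96.4 CPM in control and 80.00, 80.6 and 77.6 CPM in OC2-OE libraries, a log2 fold change of -0.31 (SE 0.038, edgeR, adjusted p = 1.11e-12). NBN, which brings ATM to the complex, rose from 119.7, 116 and 116 CPM in control to 146, 144 and 137 CPM in OC2-OE libraries, a log2 fold change of 0.28 (SE 0.033, edgeR, adjusted p = 3.78e-13). RAD50, the tether between ends, had 12.04, 10.2 and 9.84 CPM in control and 10.3, 10.1 and 9.22 CPM in OC2-OE libraries, and the groups overlapped (log2 fold change -0.12, SE 0.10, edgeR, adjusted p = 0.284). With each library left out its log2 fold change lay between -0.18 and -0.022, the latter without control replicate 1. Exons of a second gene model on the same strand, ENSG00000283782.2, cover 8124 of the 10565 exon bases of RAD50 (76.9%), and this model had 0 counts in every library. The RAD50 count thus rests on the remaining bases, and its level cannot be set against the levels of its partners. ATM, the kinase that the complex activates, had 65.7, 61.6 and 63.2 CPM in control and 63.7, 57.8 and 65.1 CPM in OC2-OE libraries. These overlapped too, with a log2 fold change of -0.028 (SE 0.045, edgeR, adjusted p = 0.577), and the sign turned with library size only and with upper-quartile factors.

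Of the 6 genes that take recombination junctions apart, the dissolution genes fell and the structure-specific nucleases were split. BLM, the helicase that dissolves paired junctions (ENSG00000197299.13, chromosome 15 from 90717346 to 90816166), had 30.7, 26.7 and 27.2 CPM in control and 12.2, 12.99 and 11.6 CPM in OC2-OE libraries, a log2 fold change of -1.20 (SE 0.076, edgeR, adjusted p = 1.01e-29). Its cofactor RMI2 (ENSG00000175643.10, chromosome 16 from 11249619 to 11381662) had 16.1, 16.5 and 16.1 CPM in control and 6.52, 9.12 and 8.23 CPM in OC2-OE libraries, a log2 fold change of -1.03 (SE 0.10). The RMI2 values were close together in control and more spread in OC2-OE cells, yet they did not overlap. RMI1, the other cofactor, fell by 0.48 (SE 0.065), from 29.9 ± 0.878 to 21.4 ± 0.360 CPM (SD, n = 3). EME1, the regulatory partner of the nuclease MUS81, had 17.6, 20.5 and 17.2 CPM in control and 11.95, 11.9 and 10.4 CPM in OC2-OE libraries, a log2 fold change of -0.69 (SE 0.087). MUS81 had 51.7, 55.9 and 51.96 CPM in control and 47.7, 48.5 and 49.5 CPM in OC2-OE libraries, which did not overlap but did not reach the threshold (log2 fold change -0.13, edgeR, adjusted p = 0.0119). SLX4, the scaffold of these nucleases, rose from 22.6, 22.4 and 25.1 CPM in control to 28.5, 28.2 and 27.99 CPM in OC2-OE libraries, a log2 fold change of 0.28 (SE 0.065, edgeR, adjusted p = 8.69e-05). SLX4 lost its call with the Wald test of DESeq2 (adjusted p = 0.00196), without control replicate 1 (edgeR, 0.25, adjusted p = 0.00125) and without control replicate 2 (edgeR, 0.25, adjusted p = 0.00180), the highest of its settings being 0.00196 and the lowest 5.07e-06.

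In the Fanconi core complex with its ubiquitin-conjugating enzyme, 5 of 9 genes (55.6%) fell, 1 (11.1%) rose and 3 were not called. Over all genes tested 28.7% fell and 27.8% rose. UBE2T, the conjugating enzyme (ENSG00000077152.12, chromosome 1 from 202331544 to 202341984), fell most of all 39, from 63.1, 64.5 and 66.7 CPM in control to 23.8, 22.8 and 25.03 CPM in OC2-OE libraries. Its log2 fold change was -1.44 (SE 0.054, edgeR, adjusted p = 4.30e-50), and its promoter holds 2 CCAAT boxes in the stretch shown above. FANCL, the ligase that works with it (ENSG00000115392.13, chromosome 2 from 58159243 to 58241410), went the other way, from 37.4, 34.5 and 34.9 CPM in control to 43.8, 41.4 and 41.7 CPM in OC2-OE libraries. The groups did not overlap, and FANCL rose by 0.25 on the log2 scale (SE 0.054, edgeR, adjusted p = 2.49e-05). FANCB, its X-linked partner in the catalytic module, was the least abundant of the set per exon kilobase, with 4.87, 3.59 and 5.29 CPM in control and 2.71, 2.83 and 2.80 CPM in OC2-OE libraries from 237 and 152 read pairs per group. FANCB fell by 0.72 (SE 0.17, edgeR, adjusted p = 9.39e-05), but the call was lost with the Wald test of DESeq2 (adjusted p = 0.00252) and in edgeR without control replicate 1 (-0.67, adjusted p = 0.00120), control replicate 3 (-0.62, adjusted p = 0.00313) or OC2-OE replicate 1 (-0.70, adjusted p = 0.00117). Over all settings its adjusted p lay between 1.82e-05 and 0.00313.

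FANCA, which with FANCG holds a second module of the core, had 42.9, 42.9 and 40.8 CPM in control and 22.8, 22.4 and 22.8 CPM in OC2-OE libraries, a log2 fold change of -0.90 (SE 0.059, edgeR, adjusted p = 2.45e-28). FANCG had 37.8, 44.2 and 42.1 CPM in control and 26.9, 25.2 and 28.7 CPM in OC2-OE libraries and fell by 0.62 (SE 0.059). For both genes the lowest control value was above the highest OC2-OE value. FANCM, the translocase that anchors the core to DNA, fell by 0.42 (SE 0.077), from 21.2 ± 1.67 to 15.8 ± 0.882 CPM (SD, n = 3). The module of FANCC, FANCE and FANCF, which places the substrate, held no called gene. FANCC had 17.4, 19.4 and 18.8 CPM in control and 15.9, 16.4 and 16.7 CPM in OC2-OE libraries (log2 fold change -0.18, edgeR, adjusted p = 0.0347). FANCE had 4.07, 4.96 and 5.72 CPM in control and 6.63, 6.58 and 6.31 CPM in OC2-OE libraries (log2 fold change 0.41, edgeR, adjusted p = 0.00465), and FANCF 36.6, 35.3 and 35.7 CPM in control and 42.4, 38.8 and 38.04 CPM in OC2-OE libraries (log2 fold change 0.15, edgeR, adjusted p = 0.0120). In FANCE and FANCF the OC2-OE libraries stood above the control libraries and in FANCC below them, with no overlap in any of these.

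Both genes of the clamp fell. FANCI (ENSG00000140525.20, chromosome 15 from 89243945 to 89317261) had 113, 112 and 108 CPM in control and 43.9, 45.2 and 45.4 CPM in OC2-OE libraries, a log2 fold change of -1.31 (SE 0.041, edgeR, adjusted p = 2.14e-57). FANCD2 (ENSG00000144554.13, chromosome 3 from 10026370 to 10101932) had 22.4, 19.5 and 20.05 CPM in control and 12.7, 10.04 and 13.5 CPM in OC2-OE libraries, a log2 fold change of -0.77 (SE 0.085, edgeR, adjusted p = 2.05e-14). OC2-OE replicate 2 was the lowest for FANCD2 and not for FANCI. POLQ, which joins ends by annealing short matching stretches (ENSG00000051341.15, chromosome 3 from 121431431 to 121545988), had 22.7, 23.01 and 21.2 CPM in control and 9.03, 8.25 and 9.17 CPM in OC2-OE libraries, a log2 fold change of -1.34 (SE 0.086, edgeR, adjusted p = 3.47e-29). Only UBE2T had a lower log2 fold change than POLQ among the 39.

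Levels of different genes were compared as CPM per kilobase of the exon bases given in the files. On this scale RAD51AP1 stood at 146 CPM per kilobase in control cells, UBE2T at 33.5, RBBP8 at 23.4 and EXO1 at 13.1, while BRIP1 at 0.748, RAD51B at 0.680 and FANCB at 0.345 were lowest. The median of the 39 was 3.43 CPM per kilobase, beside 3.72 over all genes tested. The first 3 places were the same when the longest coding transcript of GENCODE release 29 gave the length, but other places were not. FANCL, whose annotated exons add up to 37977 bases, moved from place 36 by exon bases to place 7 by its coding transcript. FANCI moved from place 13 to place 5 and NBN from place 14 to place 4. Places count all 39 genes, also RAD50 and RAD54B, at places 34 and 31 by exon bases, although reads on their shared exon bases were not counted. RAD50 had 4.38 CPM per kilobase of unshared exon bases in control cells. In OC2-OE cells RAD51AP1 had 66.96, RBBP8 20.2 and UBE2T 12.4 CPM per exon kilobase.

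Partner genes were also compared as ratios of counts per exon kilobase within a library, which need no scaling between libraries. A change in such a ratio does not depend on the lengths used, although its level does. Of 9 ratios, the groups did not overlap for 7, beside 36.7% of single genes tested that lay wholly below and 36.5% wholly above control, so that nothing is read from this count. With 3 libraries against 3 the exact two-sided permutation test cannot give a p under 0.1. The 7 ratios without overlap had this p (exact permutation test, Benjamini-Hochberg adjusted p = 0.129 over the 9 ratios). The ratio of UBE2T to FANCL was 33.2, 36.8 and 37.6 in control and 10.7, 10.8 and 11.8 in OC2-OE libraries, a difference of -1.69 on the log2 scale. Per kilobase of coding transcript the geometric mean of this ratio was 3.40 in control and 1.06 in OC2-OE cells, with the same difference. This was the farthest of the 9, and the ligase gained on its conjugating enzyme in every OC2-OE library. The ratio of BRCA2 to PALB2 was 1.66, 1.77 and 1.93 in control and 0.781, 0.875 and 0.918 in OC2-OE libraries, a log2 difference of -1.06.

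For the clamp, the ratio of FANCD2 to FANCI was 0.298, 0.262 and 0.279 in control and 0.435, 0.335 and 0.448 in OC2-OE libraries, a log2 difference of 0.53. The ratio of RMI1 to BLM was 2.17, 2.62 and 2.56 in control and 4.05, 3.72 and 4.28 in OC2-OE libraries, a log2 difference of 0.72. In both, every OC2-OE library was above every control library, as FANCI fell farther than FANCD2 and BLM farther than RMI1. The ratio of RMI2 to BLM overlapped between groups, with a log2 difference of 0.16 (exact permutation p = 0.3). The ratio of NBN to MRE11 had a log2 difference of 0.59, that of EME1 to MUS81 -0.56 and that of BRCA1 to BARD1 0.21, the smallest of those that did not overlap. The ratio of RAD50 to MRE11 overlapped, with a log2 difference of 0.20 (exact permutation p = 0.2).

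Some recombination genes lie close to a gene read in the other direction, a feature of position that the choice of the set did not use. Within 1000 bases 16 of the 39 genes had 17 divergent neighbours, 14 of which were tested. The share of all genes with such a neighbour was not counted. Distances run from the outermost exons, and some members have further starts, so a pair need not share the start in use. Of these 14 neighbours 6 fell and 3 rose, against 28.7% and 27.8% of all genes tested, and their median log2 fold change was -0.06, beside -0.46 for the members of the same pairs. Of the 10 pairs whose member fell, the neighbour fell in 4, rose in 3 and was not called in 3. The libraries mark strand, so reads of a member and its neighbour were counted apart.

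BRCA1 and NBR1, an autophagy receptor 236 bases from the outermost exon of BRCA1, went in opposite directions. That exon begins at 43170245 on chromosome 17. BRCA1 also has a start farther from NBR1, with a window from 43125315 to 43125614 that holds its CCAAT box. Which start gives the BRCA1 reads was not tested, so the pair may not share the promoter in use. NBR1 had 293, 291 and 278 CPM in control and 345, 339.6 and 352 CPM in OC2-OE libraries, a rise of 0.26 on the log2 scale (SE 0.025, edgeR, adjusted p = 3.72e-18), while BRCA1 fell by 0.69. MRE11 and ANKRD49, 94 bases apart, were split too, and ANKRD49 rose by 0.34 (SE 0.050) from 43.9 ± 1.89 to 55.7 ± 3.47 CPM (SD, n = 3). TEX14, a gene of germ cell bridges next to RAD51C, rose by 2.04 (SE 0.34) but from few reads, 22 over the control libraries and 97 over the OC2-OE libraries. Neighbours that fell with their member fell less in 3 of 4 pairs. C12orf4, 290 bases from RAD51AP1, had 541, 521 and 526 CPM in control and 401, 411 and 404 CPM in OC2-OE libraries, a log2 fold change of -0.39 (SE 0.022). HNRNPK, an abundant RNA-binding protein gene next to RMI1, fell by 0.23 (SE 0.021), and FKBP3, a prolyl isomerase gene next to FANCM, by 0.29 (SE 0.039). The noncoding SNHG31 next to BARD1 fell by 1.34 (SE 0.37), from 60 reads in the control group and 25 in the OC2-OE group.

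Near members that were not called, the neighbours DCTN5 of PALB2 (log2 fold change -0.28, SE 0.036) and NPAT of ATM (log2 fold change -0.33, SE 0.052) fell. NPAT, which switches on histone genes in S phase, had 51.9, 46.4 and 49.6 CPM in control and 37.3, 39.5 and 40.8 CPM in OC2-OE libraries, whereas the ATM libraries overlapped. Next to the rising RAD52 and SLX4, neither ERC1 (log2 fold change -0.044, SE 0.033) nor DNASE1 (log2 fold change -0.080, SE 0.069) was called. A further RAD52 window, from 949645 to 949944 on chromosome 12, lies inside the gene and farther from ERC1. MRPL27, 13 bases from EME1, had a log2 fold change of 0.028 (SE 0.048), MOSPD2 next to FANCB 0.15 (SE 0.080) and ZFYVE21 next to XRCC3 0.23 (SE 0.079), none of them called.

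Other repair genes were read from the same fit to see where the set differs. Over all genes tested 28.7% fell and 27.8% rose. Among 53 further genes of recombination and the Fanconi pathway, 28 (52.8%) fell and 9 (16.98%) rose, with a median log2 fold change of -0.28. FAAP24, which helps FANCM bind DNA, fell by 1.40 (SE 0.11), H2AX, the histone that marks breaks, by 1.04 (SE 0.038), and PARPBP, which limits recombination, by 1.02 (SE 0.071). In end joining, which seals ends with no template, 8 of 17 tested genes (47.1%) fell and 6 (35.3%) rose (median -0.14). XRCC4 fell by 0.85 (SE 0.083), SHLD1, a shieldin subunit that protects ends from resection, fell by 0.72 (SE 0.10), and the gap-filling polymerase gene POLM rose by 0.74 (SE 0.076).

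The pathways that mend bases and mismatches had medians near 0. In nucleotide excision repair 4 of 18 genes (22.2%) fell and 5 (27.8%) rose (median 0.0016), beside 28.7% and 27.8% of all genes tested. The 3 that moved farthest rose, ERCC2 by 0.57, XPA by 0.56 and XPC by 0.52 on the log2 scale. In base excision repair 6 of 17 (35.3%) fell and 3 (17.6%) rose (median 0.04). NEIL3, a glycosylase also known to act on crosslinks, fell by 1.68 (SE 0.13), XRCC1 fell by 0.64 (SE 0.044), and the glycosylase gene NEIL1 rose by 1.46 (SE 0.15). In mismatch repair 1 of 7 (14.3%) fell and 1 (14.3%) rose (median 0.05), and MLH3 rose by 0.43 (SE 0.073).

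Proliferation genes fell nearly throughout. Of 27 S phase markers 26 fell and 0 rose (median -0.87), led by GINS2 at -2.14, RRM2 at -1.53 and GINS1 at -1.30, and of 25 G2/M markers 24 fell and 0 rose (median -2.15), led by PLK1 at -2.75, CDC20 at -2.55 and DLGAP5 at -2.36. The median of the 39 recombination and Fanconi genes thus lay between that of the S phase markers and that of the other recombination genes. The count of 0 that rose comes from edgeR, and it was also 0 at an unadjusted p under 0.05 and with DESeq2 and limma voom for both lists. These are counts and medians, and the differences between lists were not tested.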

How the data were processed

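RNA from 3 control and 3 OC2-OE cultures of DMS53 was sequenced by the authors from stranded poly(A) libraries, aligned with STAR version 2.7.9a after FastQC version 0.11.8 (submitters' processing notes) and counted per gene on GRCh38 with GENCODE release 42. The deposited values are raw counts of read pairs from featureCounts version 1.6.0, counted with strand and, per the file headers, without the options that would keep pairs on 2 overlapping genes or on several places of the genome, so genes with overlapping or near-identical copies are undercounted.

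From these counts, edgeR version 4.0.16 in R version 4.3.3 gave TMM factors (0.980 to 0.985 in control, close to 1.02 in OC2-OE libraries), the filter filterByExpr and a robust quasi-likelihood fit with the group as its only term over 17307 genes. Benjamini-Hochberg adjustment ran over all of them, with a threshold of 0.001. Each standard error (SE) was taken as the size of the log2 fold change over the root of the F statistic. Depth ran from 16533284 to 19099337 counts per library, and member genes had at least 152 counts per group. Within a group libraries differed by 1.32 to 2.07 times the sampling variance, so none was an exact copy of another. This cannot tell whether the libraries came from separate cultures. The common coefficient of variation beyond counting noise, from edgeR, was 2.2%.

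Members, role groups, gene lists, motifs and tests were chosen with earlier results of these data known. Genes named beyond the members are up to 3 called genes that moved farthest on each of 7 repair and proliferation lists, every tested divergent neighbour, ONECUT2, FSBP, which shares exons with RAD54B, and DDC, NCAM1, INSM1, SYP, SCG2, CHGA, THY1, CD3E, COL1A1, PDGFRB, CD14, LYZ, KDR, CDH5, NDUFA9 and DYRK4, which were named after their values were seen. A gene that this rule names is not reported here. Neighbours were taken from the exon coordinates in the files, promoters from RefSeq windows on GRCh38.p14 and transcript lengths from GENCODE release 29. Alternatives were other scalings, DESeq2 version 1.42.0, limma voom version 3.58.1, other filters and thresholds, a block for replicate numbers, fits that left 1 library out, a distance of 500 bases for neighbours and the 150 bases nearest the start for motifs. Lengths by coding transcript or unshared exon bases, and the counts of genes sharing most exon bases added to the member, were added after seeing the data.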

Additional observations from a re-analysis of the deposited data

How the results depend on the processing

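Of 548 values of the 39 genes over 15 settings of scaling, test, filter and libraries, 534 kept direction and side of the threshold, 9 lost and 2 gained a call, and 3 turned sign, and 33 of the 39 genes kept both throughout. The 3 are all ATM, which was never called, at 0.022 with library size only, 0.014 with upper-quartile factors and, with each library left out, between -0.055 and 0.024, the latter without OC2-OE replicate 2. FANCF was called with library size only (0.20, edgeR, adjusted p = 0.000812, in a range up to 0.128). Library size only moved the median of all genes to 0.058, the median of the 39 to -0.48 and the split of all calls from 4810 higher and 4966 lower to 5337 and 4427, and with upper-quartile factors the median of the 39 was -0.49. With each library left out it lay between -0.58, without control replicate 2, and -0.50. A minimum absolute log2 fold change of 1 left 9 lower and 0 higher of the 39, and 3 calls for other recombination genes, 0 for end joining, 1 for mismatch repair, 0 for nucleotide and 2 for base excision repair and 7 for S phase markers. Mismatch repair had 5 calls at an adjusted p under 0.05. In the 150 bases nearest the start 2 genes held the TTTGAA letters (5.88%, beside 6.07% of genes tested), 5 the E2F letters (14.7%, beside 3.16%), 13 CCAAT and 0 the ONECUT letters. The causes of these shifts were not tested, apart from the fold minimum, which leaves fewer genes by construction.

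The replicate numbers did not pair the samples, with correlations of -0.003, 0.020 and 0.015 between same-numbered libraries over 17307 genes. With the replicate block 9642 genes were called in place of 9776, and 26 of the 39 were lower and 5 higher, as without it. Calls changed in genes with few counts, such as FANCB (237 in control), and also in SLX4 (1205), and the part of depth was not tested.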

Other observations

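RAD51AP1 stood apart from the other recombination genes in level, and its surroundings were looked at after that was seen. In control cells it ranked 153 of 17307 tested genes by CPM per exon kilobase, so that 0.878% of tested genes were above it, whereas the median of the 39 genes was 3.43 CPM per kilobase. C12orf4, its divergent neighbour, ranked 272, at 107 CPM per kilobase. Within 1 Mb of RAD51AP1 on chromosome 12 there were 18 other tested genes, and these ranked between 1551 and 16574. Of the 20 genes in this window 8 fell, 5 rose and 7 were not called, RAD51AP1 and C12orf4 included, against 28.7% lower and 27.8% higher over all genes tested. NDUFA9, a subunit gene of respiratory complex I, had 317.7 ± 6.17 CPM in control and 276.5 ± 4.39 CPM in OC2-OE libraries (SD, n = 3). DYRK4, a kinase gene that lies next to RAD51AP1 on its other side, had 186.5 ± 6.62 and 196.7 ± 1.53 CPM (SD, n = 3) and was not called. Both were named after their values were seen, and DNA copy number was not measured in these data.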
